A study of Mus musculus with 6 samples.

Results

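Of the 23557 genes listed for the CT26 tumors, 37 genes of T cell identity and T cell receptor signaling are described here. They were taken by name from a list that covers the CD3 chains of the receptor, the coreceptors, costimulatory and adhesion receptors of the T cell surface, the kinases and adaptors that carry the signal inwards, transcription factors of the T cell lineages and the cytokine interferon-gamma. All 37 were found in the table. CT26 is a colon carcinoma line of BALB/c mice, and 500000 of its cells had been placed under the skin of female Balb/c mice aged 7 weeks. From day 6 the mice received H89 at 10 mg/kg or NaCl into the peritoneum, 2 times a week, and 3 tumors per group were removed and frozen on day 14. H89 is a small molecule inhibitor of protein kinase A that also inhibits several other kinases. No transgene is named for either group, both carried the same line, and the RNA came from whole tumors, with no sort of the cells. Each tumor is a separate sample by its label. Total estimated counts lay between 27067349 and 31958793 per tumor, so that 1 count was worth 0.0313 to 0.0369 CPM, counts scaled to a total of 1000000 per tumor.

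A T cell recognises antigen through a receptor whose variable chains have no signaling tail of their own. The CD3 chains carry the tyrosine motifs, which Lck, a kinase bound by the coreceptors CD4 and CD8, phosphorylates. Zap70 docks on these motifs and phosphorylates the adaptors Lat and Slp-76 (Lcp2), from which the calcium, Ras and protein kinase C branches start. Protein kinase A is known to restrain Lck through the kinase Csk, and CD8+ T cells and type 1 helper cells, which depend on T-bet (Tbx21), are the main source of interferon-gamma together with natural killer (NK) cells.

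The CD3 genes lie together on mouse chromosome 9. In GENCODE M21 (GRCm38), Cd3g (minus strand, 44969572 to 44980431) and Cd3d (plus strand, 44981786 to 44987339) are transcribed away from each other, with 1355 bases between their starts, and Cd3e (minus strand, 44998740 to 45009627) follows. Cd8b1 (71322788 to 71337494) and Cd8a (71373427 to 71379173) are neighbours on the plus strand of chromosome 6. The promoters below are shown because the CD3 and CD8 genes moved together over the tumors, while Lef1 was the 1 gene of the list that went the other way. They are RefSeq sequences of GRCm38.p6, from 250 bases before to 50 bases after a gene's start, read 5′ to 3′ on the gene's strand. Capitals mark matches on either strand to TGNGGT, the core bound by RUNX factors, or to AGGAAG, a core bound by ETS factors.
Cd3g, chr9:44980382-44980681, minus strand: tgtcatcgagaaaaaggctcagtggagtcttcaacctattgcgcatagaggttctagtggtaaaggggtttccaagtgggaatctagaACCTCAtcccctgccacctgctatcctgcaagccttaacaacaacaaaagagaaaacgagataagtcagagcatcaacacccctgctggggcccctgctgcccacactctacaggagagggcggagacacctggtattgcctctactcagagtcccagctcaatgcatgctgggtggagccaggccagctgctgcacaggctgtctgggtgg
Cd3d, chr9:44981536-44981835, plus strand: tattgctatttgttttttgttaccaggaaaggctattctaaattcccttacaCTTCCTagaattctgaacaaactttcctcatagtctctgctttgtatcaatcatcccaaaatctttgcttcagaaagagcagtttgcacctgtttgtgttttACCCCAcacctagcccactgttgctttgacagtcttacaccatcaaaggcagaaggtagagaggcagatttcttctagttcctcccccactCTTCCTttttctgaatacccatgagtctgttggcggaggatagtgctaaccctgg
Cd3e, chr9:45009562-45009861, minus strand: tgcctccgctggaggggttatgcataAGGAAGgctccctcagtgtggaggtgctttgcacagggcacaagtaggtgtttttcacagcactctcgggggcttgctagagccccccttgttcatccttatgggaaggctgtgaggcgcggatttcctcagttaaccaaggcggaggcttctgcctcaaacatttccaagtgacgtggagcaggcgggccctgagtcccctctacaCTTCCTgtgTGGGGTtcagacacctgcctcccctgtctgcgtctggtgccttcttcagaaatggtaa
Cd8a, chr6:71373177-71373476, plus strand: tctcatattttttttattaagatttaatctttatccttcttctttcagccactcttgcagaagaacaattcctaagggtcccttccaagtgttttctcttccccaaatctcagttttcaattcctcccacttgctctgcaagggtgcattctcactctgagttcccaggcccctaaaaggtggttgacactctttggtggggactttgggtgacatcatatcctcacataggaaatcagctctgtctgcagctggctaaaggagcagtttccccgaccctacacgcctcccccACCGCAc
Lef1, chr3:131110047-131110346, plus strand: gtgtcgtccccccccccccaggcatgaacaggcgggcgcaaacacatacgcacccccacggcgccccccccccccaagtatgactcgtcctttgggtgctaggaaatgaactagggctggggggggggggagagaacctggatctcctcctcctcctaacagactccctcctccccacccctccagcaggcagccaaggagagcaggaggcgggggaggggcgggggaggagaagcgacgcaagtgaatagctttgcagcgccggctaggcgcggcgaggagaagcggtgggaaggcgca
The windows of Cd3d and Cd3e each held 1 match to TGNGGT and 2 to AGGAAG. Those of Cd3g and Cd8a held 1 match to TGNGGT, and the window at the first of 4 listed starts of Lef1 held none. RefSeq promoter windows were at hand for 26 of the 37 genes, 35 windows in all. TGNGGT occurred in 57.1% of these windows and in 45.8% of all 32851 windows, and AGGAAG in 42.9% against 35.4%. Matches of both motifs overlapped in 1 window, that of Cd247. A match describes letters only, and nothing follows from it about binding.

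All 37 genes passed the filter of a mean of at least 0.5 CPM, and 36 had a higher fitted level in H89 tumors, where 50.6% of the 13118 genes tested did. Cd226 and Sh2d1a passed it only through the H89 tumors, with NaCl means of 0.296 and 0.453 CPM. Their place among the higher genes, and among those with a log2 fold change above 1, is thus partly set by the filter. Cd226 is also among the genes counted below at an unadjusted p and without overlap. The median log2 fold change of the 37 was 1.15, against 0.004 over all genes tested, and 21 of the 37 exceeded 1, which 2.70% of all genes did. By edgeR's quasi-likelihood test, 24 had an unadjusted p under 0.05 with a higher level in H89 tumors (13.1% of all genes tested), and 1, Lef1, with a lower level (11.9% of all). With Benjamini-Hochberg adjustment over all genes, 1 of the 37, Ikzf3, passed 0.05 on the higher side (0.861% of all) and 0 on the lower side (0.724% of all). With Bonferroni adjustment of the same edgeR p-values, 0 passed, as for all genes of the table. The study applied that correction to p-values from DESeq2 and reported called genes, so this count does not repeat its test.

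The 3 H89 tumors lay all above the 3 NaCl tumors in CPM for 14 of the 37 genes (20.5% of all genes tested) and all below them for Lef1 (10.0% of all). After TMM scaling these counts were 10 (15.2% of all) and 1 (15.5% of all). DESeq2's Wald test called 8 of the 37 higher at the same adjusted threshold, Cd3d, Cd3g, Cd5, Cd27, Slamf6, Zap70, Ubash3a and Ikzf3 (4.75% of the genes to which it gave an adjusted p), and 0 lower (5.68% of those genes). These calls rest on few tumors. With 1 tumor left out at a time, edgeR's adjusted test called 0 of the 37 in each of the 6 fits, but it also called only 0 to 12 of the 13118 genes in them, so nothing about the 37 is read from that. The unadjusted count on the higher side, for which the share of all genes tested lay between 9.62% and 12.4% in these fits, was 8 without H89 tumor 3, 10 without NaCl tumor 3, 11 without NaCl tumor 2, 13 without H89 tumor 1, 29 without H89 tumor 2 and 32 without NaCl tumor 1. The median log2 fold change was 0.84 without H89 tumor 3 and 1.63 without NaCl tumor 1. For 19 of the 37 genes the log2 fold change shrank by more than 1.5 times or turned sign without 1 tumor, with its lowest value without H89 tumor 3 for 15 of them and without NaCl tumor 3 for 4, and for 12 it grew by more than 1.5 times without NaCl tumor 1. In bulk RNA, fewer cells of a type and less RNA per cell cannot be told apart, so none of these levels counts T cells.

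**Figure D1:**
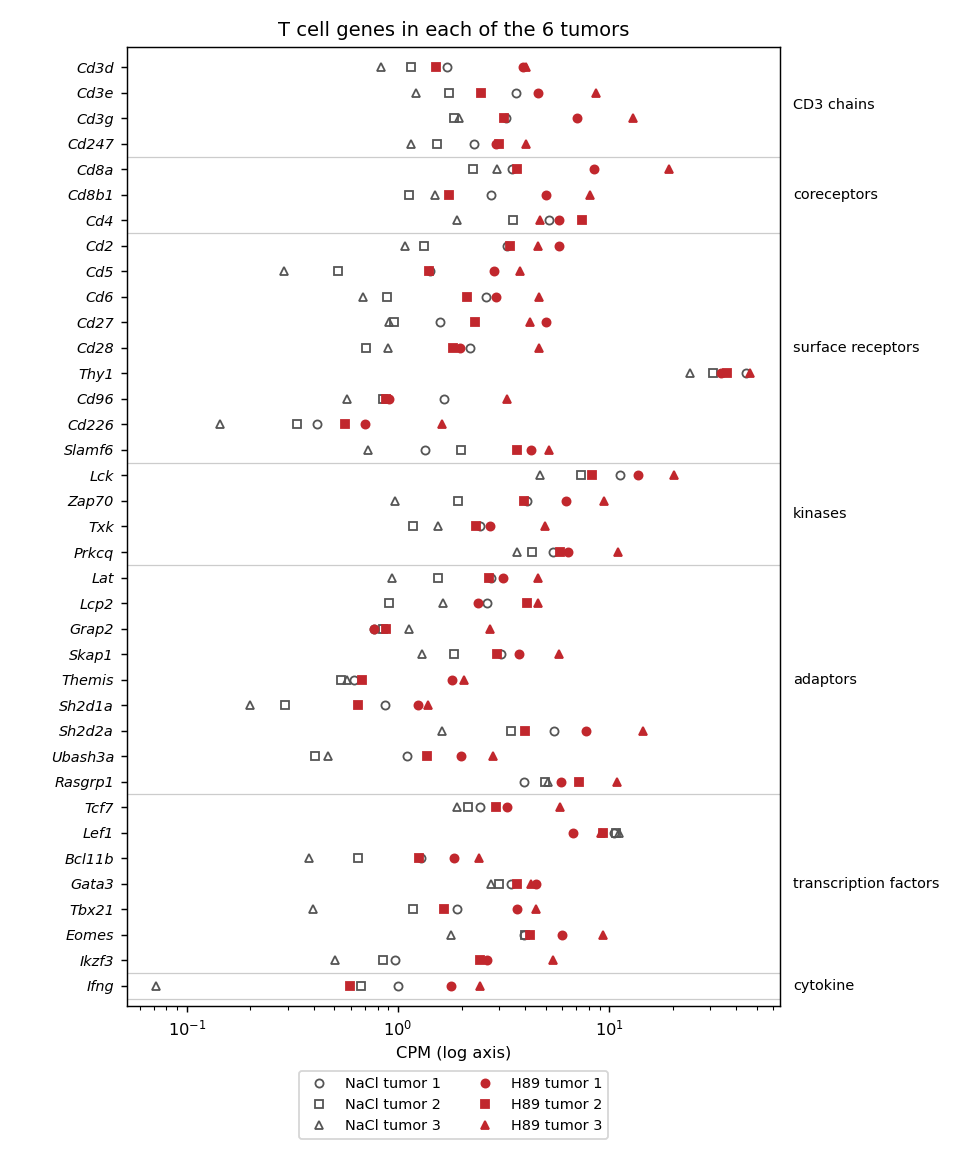
CPM of each of the 37 genes (log axis) in the 3 NaCl tumors (open grey) and the 3 H89 tumors (filled red), grouped by role. H89 tumor 3 was the highest of all tumors for 32 genes and NaCl tumor 3 the lowest for 26, while H89 tumor 2 lay below NaCl tumor 1 for 20 genes.

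The tumors of a group differed widely, and mostly in the same order for gene after gene. Among the NaCl tumors, tumor 1 was the highest for 32 of the 37 genes. Among the H89 tumors, tumor 3 was the highest for 32 and tumor 2 the lowest for 30. H89 tumor 2 lay below NaCl tumor 1 for 20 genes, among them Lef1, whose groups did not overlap. The rest of these genes held most of the overlap between the groups.

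Per kilobase of the longest protein-coding transcript in GENCODE M21, the level of Thy1 was far above the others, at a mean of 19.2 CPM per kilobase in NaCl and 22.4 in H89 tumors. In NaCl tumors the next by this measure were Lck at 3.55, Lef1 at 3.10 and Cd3g at 2.29. In H89 tumors they were Cd3g at 7.57, Lck at 6.44 and Cd2 at 3.98, and Lef1 stood at 2.42, the 11th of 37. Cd226 was the lowest in both groups, at 0.0659 and 0.214 CPM per kilobase. Thy1 and Lef1 are also expressed outside the T lineage, Thy1 by fibroblasts among others.

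The CD3 chains were the first group examined. Their log2 fold changes lay between 0.93 and 1.64, and 3 of the 4 had an unadjusted p under 0.05, but none passed adjustment in edgeR's test. Cd3g, the gamma chain, had 3.23, 1.85 and 1.94 CPM in NaCl tumors 1 to 3 and 7.01, 3.19 and 13.0 CPM in H89 tumors 1 to 3. H89 tumor 2 lay just below NaCl tumor 1, and the other H89 tumors lay well above every NaCl tumor. The means were 2.34 ± 0.776 (SD, n = 3) and 7.74 ± 4.96 (SD, n = 3), with a log2 fold change of 1.64 (SE, the standard error, 0.48, edgeR adjusted p = 0.101). Cd3e, the epsilon chain and the part shared by both CD3 dimers, had 3.61, 1.74 and 1.22 CPM in NaCl and 4.62, 2.47 and 8.66 CPM in H89 tumors. Here too H89 tumor 2 fell below NaCl tumor 1, and the log2 fold change of 1.17 (SE 0.52, edgeR adjusted p = 0.211) was 0.65 without H89 tumor 3.

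Cd3d, the delta chain, had 1.71, 1.15 and 0.834 CPM in NaCl and 3.90, 1.52 and 4.06 CPM in H89 tumors, with a log2 fold change of 1.28 (SE 0.43, edgeR adjusted p = 0.129). H89 tumors 1 and 3 were close to each other, and tumor 2 lay within the NaCl range. Cd247, the zeta chain, which NK cells also use, had 2.28, 1.53 and 1.15 CPM in NaCl and 2.90, 3.00 and 4.05 CPM in H89 tumors. It was the 1 CD3 chain whose groups did not overlap, with a log2 fold change of 0.93 (SE 0.29, edgeR adjusted p = 0.113). Summed over the 4 chains, the level was 10.8, 6.27 and 5.14 CPM in NaCl and 18.4, 10.2 and 29.8 CPM in H89 tumors.

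Among the coreceptors the CD8 genes and Cd4 differed in the tumor that stood highest. Cd8a, the alpha chain of CD8, had 3.46, 2.26 and 2.93 CPM in NaCl and 8.51, 3.66 and 19.2 CPM in H89 tumors. All H89 tumors lay above all NaCl tumors, tumor 2 by a narrow margin that TMM scaling removed. The means were 2.88 ± 0.600 (SD, n = 3) and 10.4 ± 7.93 (SD, n = 3), with a log2 fold change of 1.76 (SE 0.53, edgeR adjusted p = 0.104), which was 1.03 without H89 tumor 3. Cd8b1, the beta chain found on conventional cytotoxic T cells, had 2.75, 1.13 and 1.49 CPM in NaCl and 5.02, 1.75 and 8.07 CPM in H89 tumors (log2 fold change 1.37, SE 0.55, edgeR adjusted p = 0.176). H89 tumor 2 again lay below NaCl tumor 1.

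Cd4, which marks helper and regulatory T cells and in mice also some myeloid cells, had 5.20, 3.51 and 1.90 CPM in NaCl and 5.78, 7.41 and 4.72 CPM in H89 tumors. H89 tumor 2, the lowest H89 tumor for Cd8a, was the highest for Cd4, and H89 tumor 3, the highest for Cd8a, was the lowest for Cd4. The log2 fold change of Cd4 was 0.68 (SE 0.36, edgeR adjusted p = 0.277). Cd8a over Cd4 in CPM was accordingly 0.665, 0.644 and 1.54 in NaCl and 1.47, 0.494 and 4.06 in H89 tumors. The H89 tumors held both the lowest and the highest quotient of all tumors.

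**Figure D2:**
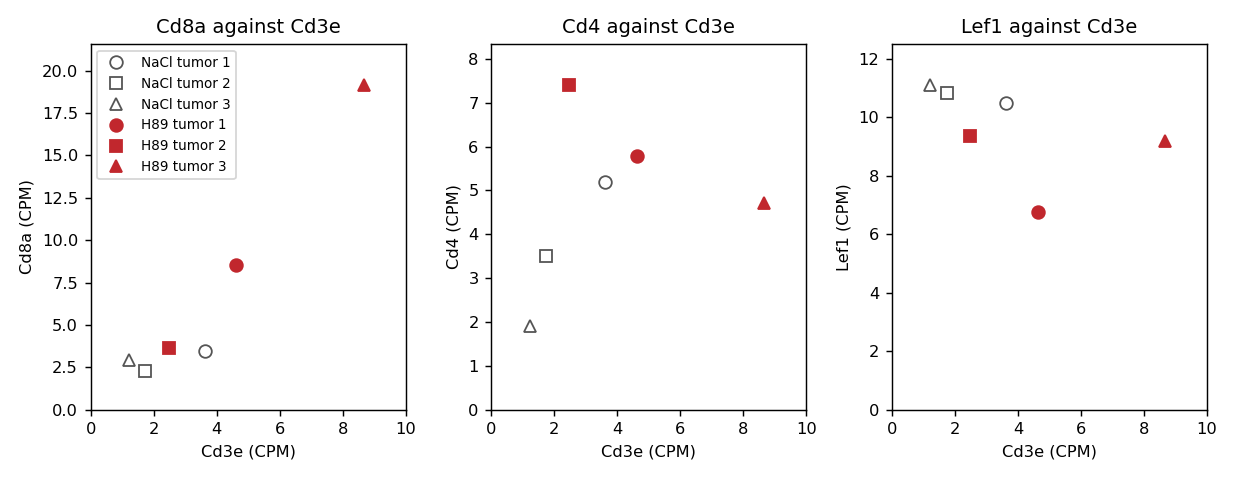
CPM of Cd8a, Cd4 and Lef1 against CPM of Cd3e, 1 point per tumor, NaCl open and H89 filled. Cd8a was highest in the tumor with the highest Cd3e, Cd4 was highest in H89 tumor 2 and not in H89 tumor 3, and all 3 H89 tumors lay below the NaCl tumors for Lef1.

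The ratios within a tumor ask whether a T cell gene differed beyond the tumor's overall level of CD3 RNA. For 8 log2 ratios, with 0.5 CPM added to both terms, the groups overlapped in every case, and exact two-sided permutation over the 10 splits of the tumors gave p between 0.2 and 0.7 (smallest possible 0.1, adjusted over the 8 between 0.6 and 0.7). The log2 ratio of Cd8a to Cd4 averaged -0.18 ± 0.60 (SD, n = 3) over NaCl tumors against 0.50 ± 1.42 (SD, n = 3) over H89 tumors, a difference of 0.69 (exact permutation p = 0.6), which became -0.020 without H89 tumor 3. Cd8a against the sum of Cd3d, Cd3e and Cd3g differed by 0.12 (exact permutation p = 0.6), and its sign turned without NaCl tumor 1 and without H89 tumor 3. Cd4 against the same sum differed by -0.56 on the log2 scale, which became -0.0029 without H89 tumor 3 and -1.19 without H89 tumor 2, and in CPM it ran from 0.183 in H89 tumor 3 to 1.03 in H89 tumor 2.

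Against the same sum, Tcf7 differed by -0.60, Eomes by -0.40, Ifng by -0.34 and Tbx21 by -0.094, and the signs of the last 2 turned with a pseudocount of 0.1, that of Tbx21 also without NaCl tumor 2 and without H89 tumor 3. The difference for Tcf7 lay between -0.90 and -0.44 and that for Eomes between -0.62 and -0.14 with 1 tumor left out. Gata3 against Tbx21, the helper factors of type 2 and type 1 cells, differed by -0.83 (exact permutation p = 0.2), with a range from -1.12 to -0.51 when 1 tumor was left out. In CPM this quotient was 1.82, 2.53 and 7.0 in NaCl and 1.23, 2.21 and 0.943 in H89 tumors. NaCl tumor 3, with the lowest Tbx21 of all tumors, set the upper end.

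Of the 9 surface receptors, all had a higher fitted level in H89 tumors, 5 had an unadjusted p under 0.05, 4 did not overlap, and none passed adjustment in edgeR's test. Cd27, a costimulatory receptor of the TNF receptor family, had 1.58, 0.961 and 0.903 CPM in NaCl and 5.01, 2.30 and 4.21 CPM in H89 tumors. Every H89 tumor lay above every NaCl tumor, with a log2 fold change of 1.67 (SE 0.37, edgeR adjusted p = 0.0653). Slamf6 (Ly108), a homophilic receptor of the SLAM family that signals through SAP, had 1.34, 2.00 and 0.717 CPM in NaCl and 4.27, 3.66 and 5.17 CPM in H89 tumors. Its H89 mean was 4.37 ± 0.760 (SD, n = 3) against 1.35 ± 0.639 (SD, n = 3), a log2 fold change of 1.62 (SE 0.35, edgeR adjusted p = 0.0615).

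Cd5, a scavenger receptor family protein that dampens receptor signaling, had 1.41, 0.517 and 0.287 CPM in NaCl and 2.84, 1.41 and 3.78 CPM in H89 tumors. NaCl tumor 1 and H89 tumor 2 met at the same level, and the log2 fold change was 1.76 (SE 0.58, edgeR adjusted p = 0.123). Its neighbour Cd6, on chromosome 19 as well (10789341 to 10830058 beside 10717116 to 10739002, both on the minus strand), had a log2 fold change of 1.12 (SE 0.52, edgeR adjusted p = 0.229), with NaCl tumor 1 at 2.61 CPM above H89 tumor 2 at 2.13 CPM. Cd2, an adhesion receptor for CD48, had 3.27, 1.33 and 1.08 CPM in NaCl and 5.81, 3.38 and 4.59 CPM in H89 tumors (log2 fold change 1.20, edgeR adjusted p = 0.150). The groups were apart for Cd2 only by the gap between NaCl tumor 1 and H89 tumor 2, and they overlapped after TMM scaling.

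Cd226 (DNAM-1), an activating receptor for nectin family ligands, was the least abundant surface receptor, with 0.413, 0.333 and 0.143 CPM in NaCl and 0.701, 0.563 and 1.62 CPM in H89 tumors. The groups did not overlap, and the log2 fold change was 1.60 (SE 0.53, edgeR adjusted p = 0.124). Cd96, which binds the same ligand family, behaved differently, with 1.65, 0.850 and 0.574 CPM in NaCl and 0.911, 0.876 and 3.30 CPM in H89 tumors. Only H89 tumor 3 exceeded NaCl tumor 1, and the log2 fold change of 0.62 became -0.25 without that tumor. Cd28, the receptor for CD80 and CD86, also had H89 tumors 1 and 2, at 1.96 and 1.81 CPM, below NaCl tumor 1 at 2.20 CPM (log2 fold change 1.05, SE 0.52, edgeR adjusted p = 0.252), and its fold change was 0.52 without H89 tumor 3. Thy1 lay between 24.1 and 46.6 CPM in all tumors, with a log2 fold change of 0.15 (SE 0.22, edgeR adjusted p = 0.708) that became -0.042 without NaCl tumor 3.

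**Figure D3:**
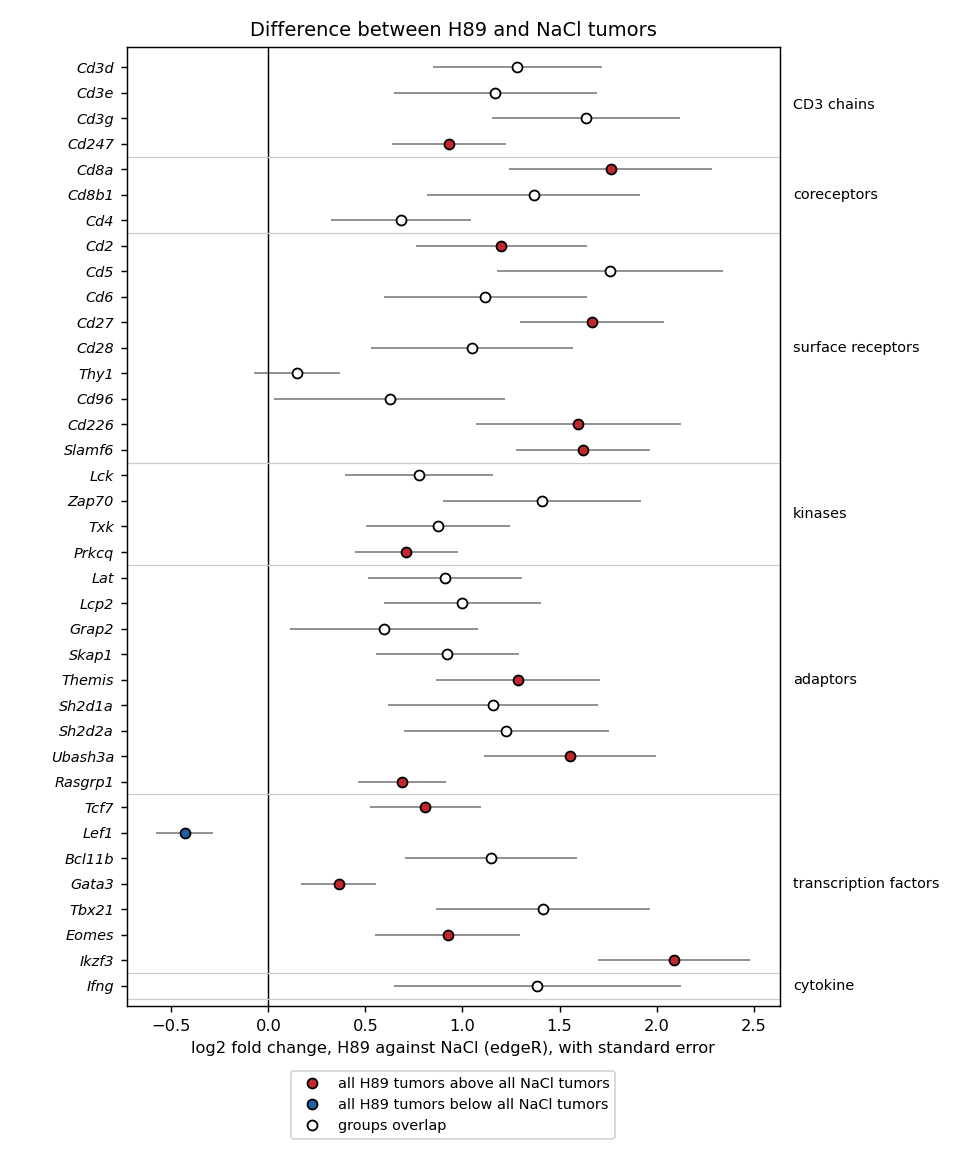
Log2 fold change of H89 against NaCl tumors for each of the 37 genes from edgeR, with its standard error, grouped by role. Filled points are the genes whose groups did not overlap in CPM, 14 of them higher in H89 tumors and Lef1 lower.

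The kinases next to the receptor had log2 fold changes between 0.71 and 1.41, 3 of 4 with an unadjusted p under 0.05. Lck, the Src family kinase that starts the signal, had 11.2, 7.35 and 4.70 CPM in NaCl and 13.8, 8.29 and 20.2 CPM in H89 tumors. The groups overlapped, and the log2 fold change of 0.78 (SE 0.38, edgeR adjusted p = 0.248) was 0.46 without H89 tumor 3. Zap70, which Lck activates, had 4.06, 1.92 and 0.968 CPM in NaCl and 6.27, 3.94 and 9.47 CPM in H89 tumors, with H89 tumor 2 a little below NaCl tumor 1 (log2 fold change 1.41, SE 0.51, edgeR adjusted p = 0.147). Txk, a Tec family kinase, had a log2 fold change of 0.87 (SE 0.37, edgeR adjusted p = 0.194). Prkcq, the protein kinase C isoform of the immune synapse, had 5.44, 4.29 and 3.68 CPM in NaCl and 6.38, 5.88 and 11.0 CPM in H89 tumors, without overlap (log2 fold change 0.71, SE 0.27, edgeR adjusted p = 0.157).

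All 9 adaptors and regulators had a higher fitted level in H89 tumors, 6 with an unadjusted p under 0.05, and 3 did not overlap. Ubash3a (Sts-2), a suppressor of receptor signaling, had 1.10, 0.406 and 0.466 CPM in NaCl and 2.00, 1.38 and 2.81 CPM in H89 tumors. All H89 values lay above the NaCl values, and the log2 fold change was 1.55 (SE 0.44, edgeR adjusted p = 0.0964). Themis, a regulator of receptor signal strength in the thymus, had 0.619, 0.536 and 0.573 CPM in NaCl and 1.79, 0.676 and 2.04 CPM in H89 tumors. The NaCl tumors were nearly equal and H89 tumor 2 lay just above them, which gave a log2 fold change of 1.29 (SE 0.42, edgeR adjusted p = 0.122). Rasgrp1, which activates Ras downstream of diacylglycerol, had 3.96, 4.99 and 5.13 CPM in NaCl and 5.93, 7.18 and 10.8 CPM in H89 tumors, also without overlap (log2 fold change 0.69, SE 0.23, edgeR adjusted p = 0.122). For this gene NaCl tumor 1 was the lowest, against the order of most of the list.

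Sh2d2a (TSAd), an adaptor that binds Lck, covered the widest span of CPM among the adaptors, with 5.49, 3.42 and 1.61 in NaCl and 7.78, 4.01 and 14.4 in H89 tumors (log2 fold change 1.23, SE 0.53, edgeR adjusted p = 0.198). Sh2d1a (SAP), the adaptor of SLAM receptors, had 0.871, 0.291 and 0.198 CPM in NaCl and 1.24, 0.645 and 1.39 CPM in H89 tumors (log2 fold change 1.16, edgeR adjusted p = 0.228). In both genes H89 tumor 2 lay below NaCl tumor 1. Lat, the membrane scaffold of the signal, had a log2 fold change of 0.91 (SE 0.40, edgeR adjusted p = 0.203), and Skap1, which links the receptor to integrins, one of 0.92 (SE 0.37, edgeR adjusted p = 0.176).

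Lcp2 (Slp-76), the cytosolic scaffold that works with Lat and is also present in myeloid cells, had 2.65, 0.902 and 1.64 CPM in NaCl and 2.40, 4.07 and 4.58 CPM in H89 tumors. Here H89 tumor 1, and not tumor 2, was the lowest of its group, and the log2 fold change was 1.00 (SE 0.41, edgeR adjusted p = 0.180). Grap2 (Gads), the bridge between Lat and Slp-76, had 0.769, 0.850 and 1.12 CPM in NaCl and 0.771, 0.877 and 2.72 CPM in H89 tumors. Apart from H89 tumor 3 all values were close, and the log2 fold change of 0.60 became -0.18 without that tumor.

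The transcription factors held both ends of the list. Ikzf3 (Aiolos), a zinc finger factor of lymphocytes of both the T and the B lineage, had 0.963, 0.850 and 0.502 CPM in NaCl and 2.63, 2.44 and 5.43 CPM in H89 tumors. The lowest H89 tumor stood well above the highest NaCl tumor. The means were 0.772 ± 0.240 (SD, n = 3) and 3.50 ± 1.67 (SD, n = 3), and Ikzf3 rose by a log2 fold change of 2.09 (SE 0.39, edgeR adjusted p = 0.0488). Its edgeR adjusted p lay between 0.0678 and 0.149 with 1 tumor left out, so the call was lost without any 1 of the 6 tumors, also under quantile normalization, while the log2 fold change stayed between 1.66 (without H89 tumor 3) and 2.30 (without NaCl tumor 1). Over the alternatives that tested it, Bonferroni adjustment left aside, its adjusted p ran from 0.000136 in DESeq2 to 0.149. Bonferroni adjustment did not call it, and it did not reach the filter of 5 CPM.

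Lef1, an effector of the Wnt pathway that naive T cells share with many epithelial and mesenchymal cells, had 10.5, 10.8 and 11.1 CPM in NaCl and 6.75, 9.35 and 9.19 CPM in H89 tumors. The NaCl tumors were nearly equal and all H89 tumors lay below them, with a log2 fold change of -0.43 (SE 0.14, edgeR adjusted p = 0.125). Its partner in naive T cells, Tcf7 (TCF-1), lay on the other side, with 2.44, 2.14 and 1.90 CPM in NaCl and 3.29, 2.91 and 5.82 CPM in H89 tumors (log2 fold change 0.81, SE 0.29, edgeR adjusted p = 0.142). All H89 tumors were above all NaCl tumors for Tcf7, and the opposite held for Lef1. Bcl11b, which commits precursors to the T lineage, had a log2 fold change of 1.15 (SE 0.44, edgeR adjusted p = 0.167), with H89 tumor 2 at 1.25 CPM beside NaCl tumor 1 at 1.29 CPM.

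Tbx21 (T-bet), the factor of type 1 helper and cytotoxic cells, had 1.89, 1.18 and 0.394 CPM in NaCl and 3.64, 1.66 and 4.53 CPM in H89 tumors. H89 tumor 2 lay inside the NaCl range, and the log2 fold change was 1.42 (SE 0.55, edgeR adjusted p = 0.169). Eomes, its relative in memory CD8+ T cells and NK cells, had 3.95, 4.00 and 1.79 CPM in NaCl and 5.97, 4.24 and 9.36 CPM in H89 tumors (log2 fold change 0.93, SE 0.37, edgeR adjusted p = 0.178). The groups were apart for Eomes by a narrow margin, which TMM scaling removed. Gata3, the factor of type 2 helper cells, had the smallest fold change of the factors, with 3.06 ± 0.345 (SD, n = 3) against 4.14 ± 0.426 CPM (SD, n = 3), a log2 fold change of 0.36 (SE 0.19, edgeR adjusted p = 0.287).

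Ifng, the cytokine, was near the limit of detection in 1 tumor. It had 0.998, 0.665 and 0.0717 CPM in NaCl, the last from 2 counts, and 1.79, 0.595 and 2.46 CPM in H89 tumors. H89 tumor 2 lay below 2 of the NaCl tumors. The log2 fold change of 1.39 had a SE of 0.74 (edgeR adjusted p = 0.283), and it was 0.86 without NaCl tumor 3, the tumor with the fewest counts.

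The correlation over tumors was taken with Cd3e, whose product is part of every T cell receptor, as Pearson's r of log2(CPM + 0.5) over the 6 tumors. The median r of the other 36 genes was 0.94, against 0.15 over all genes tested, and 23 of the 36 reached at least 0.9, which 2.47% of all genes did. By an exact permutation test of the pairings, 29 of the 36 had an adjusted p under 0.05 over the 36 relations, with Thy1 at 0.05, and 28 had one for Spearman's rho, Lef1 among them with a negative rho. The share of all genes with such p-values was not computed, and the difference between the groups enters them. Lck (r = 0.99, rho = 1.00, exact permutation p = 0.00278 for both, adjusted 0.0115 and 0.00909) was the closest, followed by Sh2d2a (r = 0.99) and Skap1 (r = 0.98). Without H89 tumor 3 and NaCl tumor 3, the tumors farthest from the median Cd3e level, the r values of these genes were 0.99, 0.98 and 0.93.

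The order of the tumors within each group carried much of this. After subtraction of each group's mean, the median r with Cd3e was 0.90, and 17 of the 36 genes reached at least 0.9. Without H89 tumor 3 and NaCl tumor 3, the median was 0.85 and the count 12. Over the 666 pairs within the list, the median r was 0.87, 38.1% of the pairs reached at least 0.9, and 36 pairs were negative, 35 of them with Lef1 and the other between Cd4 and Grap2. With group means subtracted the median over pairs was 0.77. For the counts of 17 and 12 and the share of pairs, the same over all genes was not computed. A high r is also easier to reach with fewer tumors. All tumors share their 6 totals in these values, and the genes are not independent of each other.

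The genes that followed Cd3e least were Lef1 (r = -0.56, exact permutation p = 0.25, and rho = -0.89, exact permutation p = 0.0333, adjusted 0.0429), Cd4 (r = 0.55, exact permutation p = 0.246), Grap2 (r = 0.59, exact permutation p = 0.251), Rasgrp1 (r = 0.63, exact permutation p = 0.172), Lcp2 (r = 0.70, exact permutation p = 0.108) and Slamf6 (r = 0.76, exact permutation p = 0.0806). Spearman's rho was 0.49 for Cd4, -0.029 for Grap2, 0.49 for Rasgrp1, 0.71 for Lcp2 and 0.83 for Slamf6, none with an adjusted exact permutation p under 0.05. With group means subtracted, r was 0.19 for Cd4, 0.25 for Rasgrp1 and -0.12 for Lef1. Cd4 and Lcp2 are also known in myeloid cells, and Lef1 in cells outside the blood. Several genes lost their relation without the 2 outermost tumors, among them Cd96 (0.40), Thy1 (0.45) and Ikzf3 (0.48), so their correlation with Cd3e rested on those tumors.

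**Figure D4:**
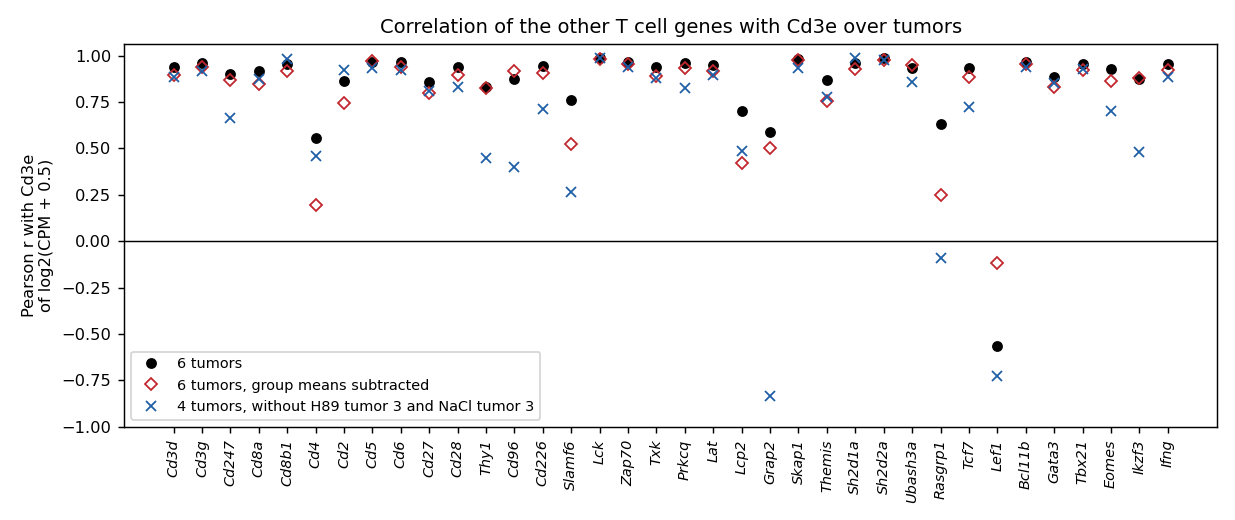
Pearson r of log2(CPM + 0.5) with Cd3e for the other 36 genes, over 6 tumors (black), with group means subtracted (red), and over 4 tumors without H89 tumor 3 and NaCl tumor 3 (blue). The median of the black points was 0.94, and Lef1, at -0.56, was the lowest of them.

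Further genes of the pathway, taken from a list of 35 that act in or beside T cell receptor signaling, had fold changes nearer to 0. Of its 32 genes tested, 22 were higher in H89 tumors (50.6% of all genes tested), and the median log2 fold change was 0.13. At an unadjusted edgeR p under 0.05, 8 were higher (13.1% of all) and 4 lower (11.9% of all), and none passed adjustment. Most of these genes are expressed well beyond T cells. The smallest p among them belonged to Malt1, a protease of the NF-kappaB branch (log2 fold change 0.66, edgeR adjusted p = 0.0723), Fyb, an adaptor of integrin activation (0.49, edgeR adjusted p = 0.0800), and Dgka, a kinase that removes diacylglycerol (0.92, edgeR adjusted p = 0.0856). Trbc2, a constant segment of the receptor's beta chain had 4.89, 2.55 and 1.59 CPM in NaCl and 7.92, 4.00 and 14.2 CPM in H89 tumors (log2 fold change 1.44, edgeR adjusted p = 0.146). Its tumors stood in the order seen for Cd3e, with r = 0.99.

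Of 8 naive and memory T cell genes, 4 were higher (50.6% of all genes tested). In each direction 1 had an unadjusted edgeR p under 0.05, Id3 on the higher side (13.1% of all) and S1pr1 on the lower side (11.9% of all). These counts were near the shares of all genes. Of 11 further helper T cell factors and cytokines, 4 passed the filter and none had an unadjusted p under 0.05. Foxp3, the factor of regulatory T cells, had 2.89, 1.69 and 0.579 CPM in NaCl and 4.18, 4.20 and 3.15 CPM in H89 tumors. Its groups did not overlap (log2 fold change 1.08, edgeR adjusted p = 0.213), and like Cd4 it was higher in H89 tumor 2 than in H89 tumor 3.

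Some lists of other leukocyte markers also had higher summed levels in H89 tumors, but no marker of any cell type list passed adjustment in edgeR's test. Of 6 NK cell markers, all were higher in H89 tumors, 4 with an unadjusted edgeR p under 0.05 (13.1% of all genes tested). Their summed level was 14.8, 11.2 and 5.74 CPM in NaCl and 34.8, 18.6 and 50.0 CPM in H89 tumors, without overlap. Within each group the tumors stood in the order of the summed CD3 chains. Ncr1, the defining NK receptor, was detected in every tumor, at 1.18 to 3.82 CPM in NaCl and 4.04 to 9.79 CPM in H89 tumors. NK cells share much of the list, including Cd247, Cd2, Cd27, Cd96, Cd226, Slamf6, Lck, Zap70, Txk, Tbx21, Eomes and Ifng, whereas activated CD8+ T cells can express Klrk1, Klrd1 and Klrc1 of the NK list. Trbc2, Cd3d, Cd3e and Cd3g had log2 fold changes between 1.17 and 1.64, and the 6 NK cell markers had a median of 1.54. The part of NK cells in these results was not tested.

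The 7 general leukocyte markers had a median log2 fold change of 0.55 and summed to between 414 and 518 CPM in NaCl and between 491 and 736 CPM in H89 tumors. Their log2 fold changes ran from -0.028 for Laptm5 to 1.01 for Ptprc (CD45, edgeR adjusted p = 0.0547), whose groups did not overlap. Those of B cells summed to between 4.55 and 5.35 CPM and between 6.77 and 8.96 CPM, with Ms4a1 at or below 0.532 CPM in every tumor. The 9 macrophage markers overlapped, at 1205 to 2042 and 1715 to 2116 CPM, and had a median log2 fold change of 0.10. The 5 neutrophil markers summed to 20.9 to 36.6 CPM in H89 tumors, above all NaCl tumors (the lowest of them at 15.3 CPM), but the median log2 fold change of the 4 tested was -0.20 and Ly6g was at 0 in every tumor. Endothelial markers overlapped, at 73.2 to 127 and 64.4 to 102 CPM, with a median log2 fold change of -0.098. Fibroblast markers summed to 2429 to 2589 CPM in NaCl and 2954 to 3502 CPM in H89 tumors. The sum for epithelial tumor cells was lower, at 22.1 to 40.2 in NaCl and 12.9 to 18.9 CPM in H89 tumors, through Krt18 (log2 fold change -1.04, edgeR adjusted p = 0.0653) and Areg (-1.21, edgeR adjusted p = 0.0659), while Krt8 and Krt19 had log2 fold changes of 1.03 and 2.56 and the list's median was -0.0076. Epcam, a defining marker of epithelium, was too low to be tested, at 0.0369 CPM or less in NaCl tumors and 1.16, 0.0939 and 0.0970 CPM in H89 tumors. Skeletal muscle markers summed to 17.2 CPM in H89 tumor 1 and to at most 1.75 CPM elsewhere. The part of these cells in the results was not tested.

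**Figure D5:**
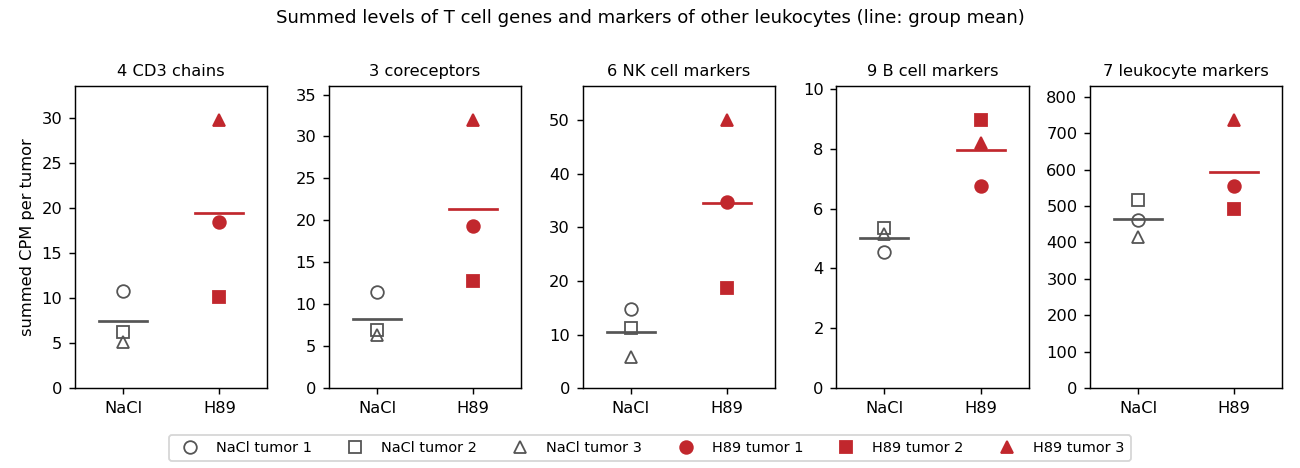
Summed CPM per tumor of the 4 CD3 chains, the 3 coreceptors and the markers of NK cells, B cells and leukocytes in general, with the group mean as a line; every vertical axis starts at 0 and has its own scale. The NK sum ran from 5.74 to 14.8 CPM in NaCl and from 18.6 to 50.0 CPM in H89 tumors, with H89 tumor 3 the highest for both the CD3 chains and the NK markers.

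Exons of 13 of the 37 genes overlap those of another gene in GENCODE M21, on the opposite strand for Cd3e, Cd247, Lcp2, Skap1, Themis, Sh2d1a, Lef1, Gata3 and Eomes. The overlap is on the same strand for Cd247, Cd27, Lck, Lat, Gata3 and Ifng, where strand could not separate the reads. Whether the counting used strand is not given in the sources used here, and the share of reads from the partner gene is unknown. For 17 of the 37 genes the deposited count was more than 0.01 from a whole number in at least 1 tumor, so some of their reads had been divided among transcripts or genes.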

How the data were processed

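RNA of 6 CT26 tumors, 3 per group by their labels, was sequenced by the authors on the BGISEQ-500 platform. The deposited table is named TPM, but its values sum to between 27067349 and 31958793 per tumor and were read as estimated counts, unscaled for depth or length. The submitters' processing notes name kallisto, DESeq2 and GRCm38, and versions are not given in the sources used here. After rounding, 13118 genes had a mean CPM of 0.5 or more and were fitted together with edgeR 4.0.16 (R 4.3.3, TMM, glmQLFit, then glmQLFTest, with no term but treatment), with Benjamini-Hochberg adjustment over all of them. The columns of the listed genes were recorded singly, and for this fit the remaining columns were taken as the same kind of count. CPM values are unrounded estimated counts divided by the tumor's total and multiplied by 1000000. Ratios and correlations used log2(CPM + 0.5) and exact permutation tests (SciPy 1.17.1). limma 3.58.1, DESeq2 1.42.0, other scalings, filters and pseudocounts and leaving out each tumor were alternatives. The edgeR script was tested on simulated data. All 37 genes are named by role, with at most 3 further genes per pathway list, the receptor's constant genes, Foxp3, Kcnab1 and markers of other cell types. The 37 genes and all lists were chosen with earlier results of these data known. Trac and Trbc1 were not analysed here. No label ties the tumors to separate cages or days, and p-values measure the spread between these tumors. Intervals of counting error were not computed.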

Additional observations from a re-analysis of the deposited data

Results flagged for a closer look

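Counts over the variable and joining segments of the T cell receptor genes, which lie outside the comparisons above and were read after the table had been seen, were above the level of the NaCl tumors. The 192 segment columns summed to 2.36, 1.42 and 1.01 CPM in NaCl tumors 1 to 3 (68.6, 38.5 and 28.0 estimated counts) and to 4.00, 2.94 and 8.67 CPM in H89 tumors 1 to 3 (114, 94.1 and 268 estimated counts). All H89 tumors lay above all NaCl tumors, and the order of the tumors was that of Cd3e except that H89 tumor 2 stood above NaCl tumor 1. The means were 1.60 ± 0.693 (SD, n = 3) and 5.20 ± 3.05 CPM (SD, n = 3), with an exact two-sided permutation p of 0.1, the smallest that 3 tumors against 3 can give. Between 19 and 31 segments had any count in NaCl tumors and between 41 and 58 in H89 tumors, a number that also grows with the count itself, so it is no measure of how diverse the receptors were.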

How the results depend on the processing

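The number of the 37 genes called higher with adjustment is given with the genes of the whole table called in either direction in parentheses. It was 1 in edgeR's fit (208), under median ratio size factors (251) and with limma at a pseudocount of 0.1 (251). It was 2 without a filter (311), 2 in limma on log2(CPM + 0.5) (261), 2 with a pseudocount of 1 (249) and 8 in DESeq2 (1392). At a mean of at least 5 CPM, where 8 of the 37 were tested, it was 0 (197). Quantile normalization (80), Bonferroni adjustment of edgeR's p-values (0) and all fits without 1 tumor (0 to 12) also gave 0. The unadjusted count of 24 was 5 at the stricter filter (13.2% of all genes tested there), 11 under quantile normalization (9.84% of all), and between 8 and 32 without 1 tumor (9.62% to 12.4% of all). The median log2 fold change of 1.15 was 0.66 under quantile normalization and 0.70 in limma with a pseudocount of 1, and between 0.84 and 1.63 without 1 tumor. Fewer genes and tumors are part of the stricter filter and of the fits without 1 tumor, and otherwise the cause was not tested. Over 526 refits of single genes, 34 of the 37 kept their direction, and 3 turned with 1 tumor left out, none of them called: Thy1 (-0.042 without NaCl tumor 3, up to 0.44), Cd96 (-0.25 without H89 tumor 3, up to 1.18) and Grap2 (-0.18 without H89 tumor 3, up to 0.87).

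Of the ratios within tumors, Cd8a to Cd4 turned to -0.020 (range without 1 tumor -0.020 to 1.40) and Cd8a to CD3 to -0.054 and -0.023 (-0.054 to 0.35) with 1 tumor left out. Tbx21 to CD3 turned to 0.16 at a pseudocount of 0.1 and to 0.067 and 0.070 in 2 of the fits without 1 tumor (-0.28 to 0.070), and Ifng to CD3 to 0.14 at a pseudocount of 0.1. The number of genes correlated with Cd3e at an unadjusted exact permutation p under 0.05, 30, was 29 or 30 under other pseudocounts and TMM scaling. The share of all genes at that threshold was not computed. Without overlap in TMM-scaled CPM, a scaling chosen after the data had been seen, were 10 genes and Lef1.

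Replicate numbers are shared by both groups, but deviations from the group means correlated only at 0.16, 0.06 and -0.03 for numbers 1 to 3, so the numbers were not taken to pair tumors. With the replicate block, 0 of the 37 genes and 0 genes of the table passed adjustment in edgeR. At an unadjusted p under 0.05, 19 of the 37 were higher in H89 tumors (14% of all genes tested). The median log2 fold change of the 37 was 1.16. At these totals a gene at 0.5 CPM rests on few counts per tumor, and 3 tumors per group limit the precision.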
